A study of Mus musculus with 8 samples.

Results

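The genes described here are 34 mouse genes of the NRF2 pathway and of the antioxidant enzyme systems around it, taken from a fixed list of symbols matched to Ensembl gene IDs. All 34 were found among the 55450 genes of the expression table of replicates 1 to 3, and all 34 passed the filter on low values that left 11387 genes for testing. NRF2, encoded by Nfe2l2, is a transcription factor that KEAP1 binds and sends for degradation in unstressed cells. Oxidants and electrophiles modify cysteines of KEAP1, NRF2 then accumulates, pairs with small MAF proteins and binds antioxidant response elements near genes for glutathione synthesis, the thioredoxin system and NADPH supply. In macrophages and dendritic cells this program is known for limiting oxidative damage and for restraining inflammatory gene expression.

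The cells were grown from bone marrow of mice with a Sjögren's syndrome dry eye disease, an autoimmune condition of the tear and salivary glands, and were treated with recombinant S100A8/A9 or with phosphate-buffered saline (vehicle). S100A8/A9 is a pair of calcium-binding proteins set free by neutrophils and monocytes at inflamed sites. There were 4 libraries of poly(A) RNA in each group, numbered 1 to 4, and all of them came from cells of the diseased mice. The study asked which signaling pathways S100A8/A9 engages in dendritic cells, and the comparison below asks what it did to the antioxidant program. Dose, exposure time, strain, sex and age are not given in the sources used here, nor whether the replicates were separate animals or cultures, so the p-values measure only the spread between these libraries.

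Values are read here as FPKM, a read count scaled by gene length and library depth, although no header or label names the unit. Replicates 1 to 3 of both groups share 1 table and replicate 4 of both groups has a separately made table with other levels, so tests used replicates 1 to 3 and the replicate 4 values stand beside them. The cell type field names dendritic cells while the titles use an abbreviation common for macrophages. Itgax, which encodes CD11c, lay between 47.2 and 62.5 FPKM with S100A8/A9 and between 47.6 and 66.9 FPKM with vehicle in replicates 1 to 3. The dendritic cell growth factor receptor gene Flt3 stayed under 1 FPKM in these 6 libraries, and the macrophage receptor gene Csf1r lay between 126 and 213 FPKM with S100A8/A9 and between 109 and 186 FPKM with vehicle. Replicate 4 stood apart in its levels. The lysozyme gene Lyz2 was at 23928 FPKM there with S100A8/A9 and 26668 FPKM with vehicle, against at most 5146 FPKM in the other libraries, while the other 11 macrophage markers summed to 1805 FPKM with S100A8/A9 and 1703 FPKM with vehicle, against at most 1336 FPKM. The class II antigen presentation genes Cd74, H2-Aa and H2-Ab1 summed to 1454 FPKM in replicate 4 with S100A8/A9 and 1518 FPKM with vehicle, against at least 3308 FPKM in the others. The other 8 dendritic cell markers went the other way. They summed to 167 FPKM in replicate 4 with S100A8/A9 and 164 FPKM with vehicle, against at most 160 FPKM in the others. In bulk RNA, fewer cells of a type and less RNA per cell cannot be told apart.

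With S100A8/A9 the antioxidant genes had mean log2 differences from vehicle between -0.11 and 0.32 in replicates 1 to 3. The fits below cannot show that levels were unchanged, as differences of this size may go uncalled. No gene of the 34 passed an adjusted p under 0.05 in limma, either with group as the only term, where 0% of all tested genes passed, or with the replicate number as a block, where 0.518% of all tested genes passed (0.501% higher and 0.0176% lower with S100A8/A9). In the same blocked fit 10 of 12 interferon-stimulated genes were called, all higher with S100A8/A9, and none without the block. That list was chosen with earlier results of these data known, so its calls are no independent check of the fit. With the block, 3 of the 12 were called under each of 3 other scalings, 5 without replicate 3, and none without the filter or with all 8 libraries. Other blocked settings called as many of the 12 or more: 10 with a pseudocount of 0.1, 11 without replicate 1, and 12 without replicate 2 or with a filter at 5 FPKM. Their median log2 difference was 1.41 in replicates 1 to 3 and 0.23 in replicate 4. What the antioxidant genes showed was a small difference in mostly 1 direction. Within replicate numbers, 18 of the 34 had higher FPKM with S100A8/A9 in each of replicates 1 to 3, against 19.4% of all tested genes. None of the 34 was lower in each, against 9.62% of all tested genes. With quantile normalization the 18 became 9, against 12.9% of all genes, and 2 members were then lower in each number, as were 2 with median-of-ratios and 1 with upper-quartile scaling. Of all tested genes, 16.4% were lower in each number with quantile, 13.4% with median-of-ratios and 13.1% with upper-quartile scaling.

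The median log2 difference over the 34 genes, S100A8/A9 minus vehicle on the log2(FPKM + 1) scale, was 0.10, beside 0.02 over all tested genes. By replicate number the members' medians were 0.04 (1), 0.09 (2) and 0.17 (3), where all tested genes had medians of -0.01, 0.01 and 0.08. In replicate 4 it was 0.04, beside 0.02 for all genes. Of the 18 genes that were higher in each of replicates 1 to 3, 14 were also higher in replicate 4, or 77.8%, and among all genes with that pattern and a replicate 4 value the share was 60.2%. Unpaired, the median over the 34 was -0.02 without S100A8/A9 replicate 3, 0.21 without S100A8/A9 replicate 1 and 0.20 without vehicle replicate 3. Leaving out whole numbers with the block kept it above 0, at 0.13 without replicate 1, 0.11 without replicate 2 and 0.07 without replicate 3.

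**Figure D1:**
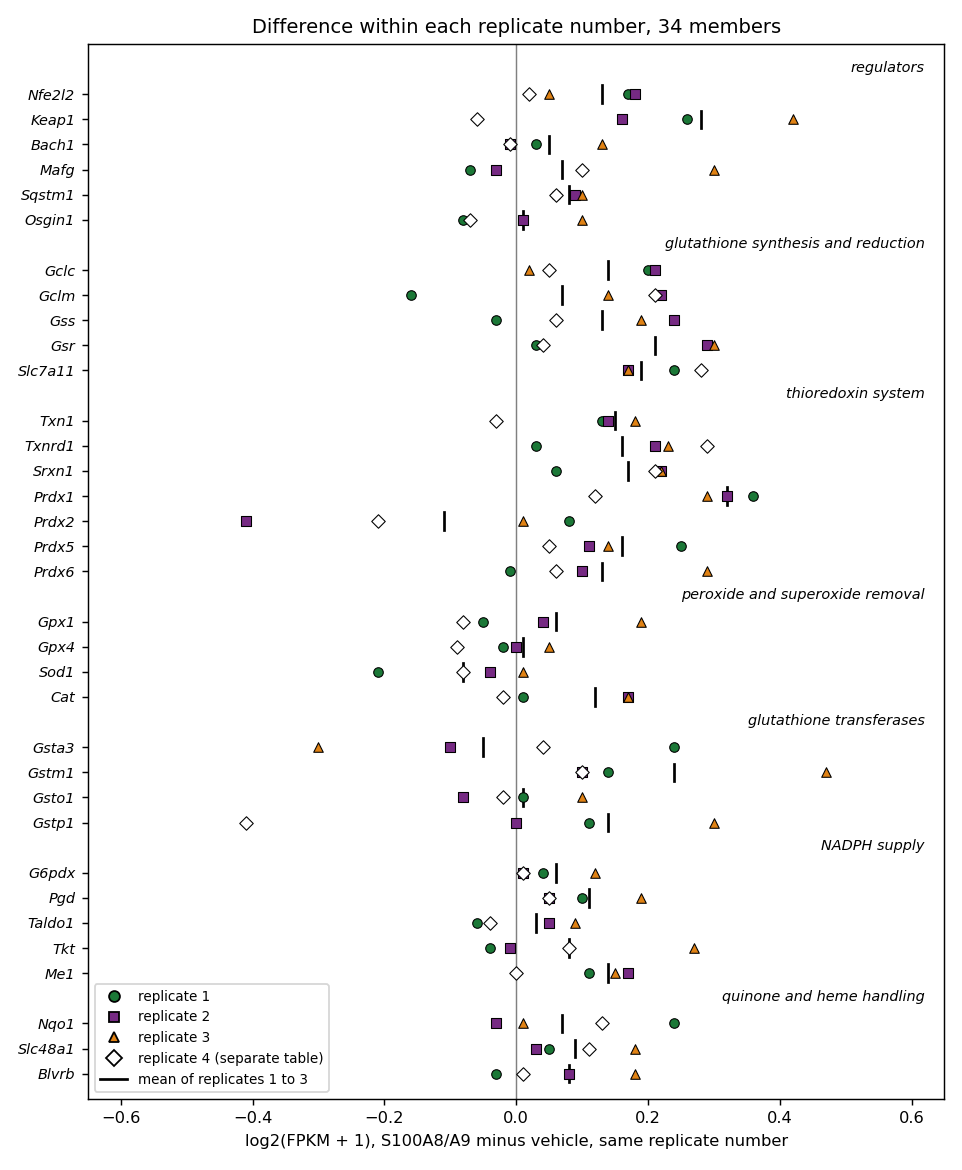
Difference in log2(FPKM + 1) between S100A8/A9 and vehicle within each replicate number, for 34 genes ordered by role; filled symbols are replicates 1 to 3, open diamonds the separately made replicate 4, and black ticks the mean of replicates 1 to 3. Most symbols lie right of zero and most ticks lie under 0.2, with Prdx1 at 0.32 and Keap1 at 0.28 the farthest right.

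The regulators of the pathway gave the 1 gene of the 34 whose groups did not overlap. Keap1, which encodes the NRF2 inhibitor (ENSMUSG00000003308, reverse strand of chromosome 9 from 21229730 to 21239361 in GRCm38), was at 13.7, 13 and 14.4 FPKM with S100A8/A9 in replicates 1 to 3, against 11.2, 11.5 and 10.5 FPKM with vehicle. Every S100A8/A9 library was above every vehicle library, a pattern that 4.71% of all tested genes showed in this direction and 1.94% in the other. As 1 of 34 is a smaller share than 4.71%, the pattern does not set the members apart from all genes. The means were 13.7 ± 0.69 FPKM with S100A8/A9 and 11.1 ± 0.526 FPKM with vehicle (SD, n = 3 each), a 1.23-fold geometric mean of the within-number ratios. Its log2 difference was 0.28 ± 0.0925 (SE) without the block and 0.28 ± 0.0788 with it, with limma adjusted p-values of 1 and 0.358. In replicate 4 Keap1 was not higher, at 7.2 FPKM with S100A8/A9 and 7.52 FPKM with vehicle. An antisense gene, Gm16754, shares 510 exon bases with Keap1 and was at 1.75, 2.04 and 2.24 FPKM with S100A8/A9 and at 1.39, 1.34 and 2.56 FPKM with vehicle. As no strand marking is stated, reads of this pair cannot be told apart.

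Nfe2l2 itself was at 67.3, 54.3 and 48.2 FPKM with S100A8/A9, against 59.6, 48 and 46.5 FPKM with vehicle. It was higher within each number with a log2 difference of 0.13 (blocked limma, adjusted p = 0.671), and the groups overlapped. In replicate 4 it was at 73.1 FPKM with S100A8/A9 and 72.2 FPKM with vehicle. NRF2 protein, which degradation mainly sets, was not measured. Sqstm1 encodes p62, an autophagy receptor that sequesters KEAP1 and is itself an NRF2 target. Its levels were 205, 282 and 370 FPKM with S100A8/A9 and 196, 265 and 345 FPKM with vehicle, higher within each number by ratios of 1.04, 1.06 and 1.07. The 3 other regulators had no common direction over the numbers. Bach1, a heme-sensing repressor that competes with NRF2, had a log2 difference of 0.05. Mafg, a small MAF partner of NRF2, had 0.07, with replicate 3 at 37.2 FPKM with S100A8/A9 and 29.9 FPKM with vehicle and the other 2 numbers slightly lower with S100A8/A9. Osgin1, an oxidative stress-induced growth inhibitor gene, had 0.01.

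Thioredoxin reduces protein disulfides and, through peroxiredoxins, peroxides, and thioredoxin reductase recharges it with NADPH. Of its 7 genes, 5 were higher with S100A8/A9 in each of replicates 1 to 3 and none was lower in each, while the other 13 of the 18 genes higher in each lay in the other roles. The 7 genes summed to 637, 699 and 985 FPKM with S100A8/A9 and to 546, 610 and 838 FPKM with vehicle. In replicate 4 the sums were 1389 FPKM with S100A8/A9 and 1321 FPKM with vehicle. Differences between roles were not tested.

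Prdx1 encodes a cytosolic peroxiredoxin that reduces hydrogen peroxide, and it had the largest log2 difference of the 34 genes (ENSMUSG00000028691, forward strand of chromosome 4 from 116685544 to 116700822 in GRCm38). It was at 273, 293 and 442 FPKM with S100A8/A9, against 212, 235 and 362 FPKM with vehicle. Each S100A8/A9 library was above its own numbered vehicle library, by ratios of 1.29, 1.25 and 1.22, but the groups overlapped because replicate 3 was high in both. The means were 336 ± 92 FPKM with S100A8/A9 and 270 ± 80.4 FPKM with vehicle (SD, n = 3 each). The log2 difference was 0.32 ± 0.252 (SE) without the block and 0.32 ± 0.0502 with it, with limma adjusted p-values of 1 and 0.068. With a filter at 5 FPKM, which leaves fewer genes to adjust over, the blocked adjusted p was 0.0474. Over all blocked and unblocked alternatives with 6 or 8 libraries it ranged from 0.0474 to 1, and for Keap1 from 0.287 to 1. Unpaired, the Prdx1 difference was 0.11 without S100A8/A9 replicate 3, 0.17 without vehicle replicate 1 and 0.55 without vehicle replicate 3, while leaving out whole numbers with the block gave 0.30 to 0.34. In replicate 4 the ratio was 1.09, at 720 FPKM with S100A8/A9 and 663 FPKM with vehicle. Prdx5, a peroxiredoxin found in mitochondria, peroxisomes and cytosol, was at 124, 137 and 176 FPKM with S100A8/A9 and at 104, 127 and 160 FPKM with vehicle. Its log2 difference was 0.16 ± 0.0556 in the blocked fit, and its limma adjusted p was 0.48 there and 1 without the block.

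Txn1, which encodes cytosolic thioredoxin, was at 79.2, 86.2 and 95.4 FPKM with S100A8/A9, against 72.4, 78.2 and 84.2 FPKM with vehicle. Its within-number ratios were 1.09, 1.1 and 1.13, its log2 difference was 0.15 ± 0.0527 with the block, and its limma adjusted p-values were 0.522 with the block and 1 without it. In replicate 4 Txn1 was slightly lower, at 244 FPKM with S100A8/A9 and 249 FPKM with vehicle. Txnrd1, the cytosolic thioredoxin reductase, was at 64.1, 84.9 and 109 FPKM with S100A8/A9 and at 62.6, 73.2 and 92.8 FPKM with vehicle. Srxn1 encodes sulfiredoxin, which rescues overoxidized peroxiredoxins, and was at 29.2, 36 and 47.3 FPKM with S100A8/A9 and at 27.9, 30.8 and 40.6 FPKM with vehicle. Both genes were higher within each number, least so in replicate 1, with ratios there of 1.02 for Txnrd1 and 1.04 for Srxn1. In replicate 4 their ratios were 1.23 for Txnrd1 and 1.16 for Srxn1. Their adjusted p-values in limma with the block were 0.593 for Txnrd1 and 0.58 for Srxn1.

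Prdx2, a peroxiredoxin abundant in red cells, had the lowest log2 difference of the 34. It was at 26.8, 18.5 and 23.8 FPKM with S100A8/A9, against 25.3, 24.9 and 23.6 FPKM with vehicle. The value of -0.11 ± 0.105 (SE, adjusted p = 0.874 in limma with the block, 1 without it) rested on replicate 2, and became 0.04 without S100A8/A9 replicate 2 and 0.05 without both replicate 2 libraries. In replicate 4 it was at 35.5 FPKM with S100A8/A9 and 41.2 FPKM with vehicle. Prdx2 shares 173 exon bases with Junb on the opposite strand, which was at 55.4, 49.3 and 64.8 FPKM with S100A8/A9 and 52.8, 48.3 and 48.1 FPKM with vehicle. Summed hemoglobin and other erythroid markers were 4.63, 7.69 and 115 FPKM with S100A8/A9 in replicates 1 to 3. With vehicle they were 3.21, 9.56 and 129 FPKM. Prdx2 was not highest in replicate 3 of either group, and the part of these markers in the Prdx2 value was not tested. Prdx6, which also acts on phospholipid hydroperoxides, was at 40.7, 43.3 and 91.7 FPKM with S100A8/A9 and at 41, 40.3 and 74.9 FPKM with vehicle, so that both replicate 3 libraries stood far above the others.

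**Figure D2:**
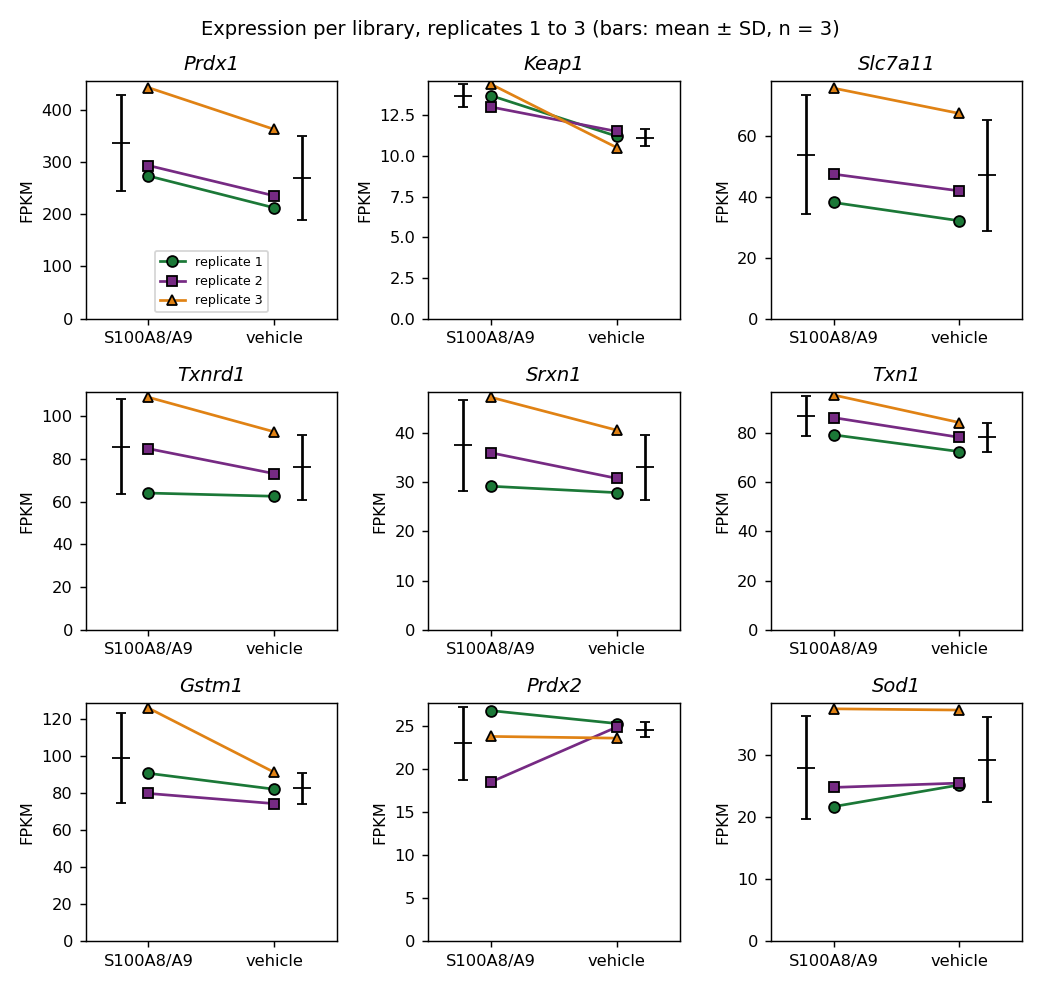
FPKM of 9 genes in replicates 1 to 3, with S100A8/A9 at the left and vehicle at the right of each panel, lines joining libraries of the same number, and bars giving mean ± SD (n = 3). Lines fall to the right for Prdx1, Keap1, Slc7a11, Txnrd1, Srxn1, Txn1 and Gstm1, while the Prdx2 values of replicate 2 are 18.5 FPKM with S100A8/A9 and 24.9 FPKM with vehicle, and the groups overlap in every panel except that of Keap1.

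Promoter windows of 4 of these genes are shown because their genes were higher within numbers or belong to the core of the pathway, and because NRF2 and the AP-1 factors read related letters. The windows run from 250 bases before to 50 bases after a RefSeq start in GRCm38.p6. Capitals mark the antioxidant response element core TGACNNNGC and the AP-1 and MAF type core TGANTCA, on either strand, and a stretch that matches both motifs is marked as 1.
Prdx1, chr4:116685349-116685648, forward strand: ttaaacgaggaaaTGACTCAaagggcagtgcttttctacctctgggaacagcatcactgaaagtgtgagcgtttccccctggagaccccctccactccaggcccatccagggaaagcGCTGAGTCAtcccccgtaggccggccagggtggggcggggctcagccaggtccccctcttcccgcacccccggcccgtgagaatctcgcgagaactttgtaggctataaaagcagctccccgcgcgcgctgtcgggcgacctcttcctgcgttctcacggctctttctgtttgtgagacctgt
Srxn1, chr2:152105274-152105573, forward strand: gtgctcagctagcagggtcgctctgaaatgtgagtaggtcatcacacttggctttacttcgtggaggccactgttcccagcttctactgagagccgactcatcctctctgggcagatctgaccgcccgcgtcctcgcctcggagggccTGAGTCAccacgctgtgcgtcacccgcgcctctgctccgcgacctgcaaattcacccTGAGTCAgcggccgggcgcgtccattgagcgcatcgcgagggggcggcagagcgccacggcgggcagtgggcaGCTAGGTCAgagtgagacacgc
Txnrd1, chr10:82858956-82859255, forward strand: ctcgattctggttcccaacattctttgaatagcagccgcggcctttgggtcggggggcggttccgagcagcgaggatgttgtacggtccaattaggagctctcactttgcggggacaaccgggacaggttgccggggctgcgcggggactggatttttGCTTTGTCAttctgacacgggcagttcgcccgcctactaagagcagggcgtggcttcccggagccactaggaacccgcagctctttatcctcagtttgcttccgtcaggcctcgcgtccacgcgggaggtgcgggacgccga
Slc7a11, chr3:50443564-50443863, reverse strand: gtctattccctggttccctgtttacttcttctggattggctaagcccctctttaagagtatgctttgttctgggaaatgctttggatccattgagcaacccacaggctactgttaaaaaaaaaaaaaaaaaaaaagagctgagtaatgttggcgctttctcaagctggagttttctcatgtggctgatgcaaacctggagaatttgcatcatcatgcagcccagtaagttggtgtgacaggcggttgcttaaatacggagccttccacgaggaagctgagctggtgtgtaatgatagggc
The Prdx1 window holds GCTGAGTCA, which matches both motifs and begins 133 bases before the start, and TGACTCA at 237 bases before it. The Srxn1 window holds TGAGTCA at 102 and at 45 bases before the start, and the first motif at 28 bases after it. Txnrd1 has 3 windows, of which the one printed holds the first motif 92 bases before the start. The Slc7a11 window holds neither motif. RefSeq windows were matched for 30 of the 34 genes, 39 windows in all, and 28.2% of these held TGACNNNGC, against 12.4% of all 32851 windows. For TGANTCA the shares were 12.8% and 7.81%. A match describes letters in the window and is not evidence of binding.

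Of the 5 genes of glutathione synthesis and reduction, 3 were higher with S100A8/A9 in each number and none was lower in each, with a median log2 difference of 0.14. Slc7a11 encodes the cystine importer xCT, which supplies the cysteine for glutathione, and was at 38.1, 47.4 and 75.6 FPKM with S100A8/A9, against 32.1, 41.9 and 67.3 FPKM with vehicle. The within-number ratios were 1.19, 1.13 and 1.12, and in replicate 4 the ratio was 1.23, at 31.3 FPKM with S100A8/A9 and 25.6 FPKM with vehicle. It was thus higher with S100A8/A9 in all 4 numbers, although the groups overlapped. The log2 difference was 0.19 ± 0.319 (SE) without the block and 0.19 ± 0.0564 with it, with limma adjusted p-values of 1 and 0.372. Unpaired, it turned to -0.08 without S100A8/A9 replicate 3 and to -0.04 without vehicle replicate 1, while leaving out whole numbers with the block gave 0.17 to 0.21. Gclc and Gclm encode the catalytic and modifier subunits of the rate-limiting enzyme. Gclc was at 17.3, 26.6 and 35.8 FPKM with S100A8/A9 and at 15, 22.9 and 35.2 FPKM with vehicle, higher within each number. Gclm was lower with S100A8/A9 in replicate 1, at 24.8 FPKM against 27.9 FPKM with vehicle, and higher in the other numbers. The glutathione synthetase gene Gss had a log2 difference of 0.13, with ratios of 0.976, 1.2 and 1.15 and so likewise lower in replicate 1, and the glutathione reductase gene Gsr had 0.21 with ratios of 1.02, 1.24 and 1.24. All 5 genes of this role were higher with S100A8/A9 in replicate 4.

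The glutathione peroxidases, cytosolic superoxide dismutase and catalase remove peroxide and superoxide, and their 4 genes had a median log2 difference of 0.03. Of Gpx1, Gpx4, Sod1 and Cat, only the catalase gene Cat was higher in each number, and all 4 were lower with S100A8/A9 in replicate 4. Gpx1, the abundant cytosolic glutathione peroxidase, was at 294, 284 and 340 FPKM with S100A8/A9 and at 304, 275 and 299 FPKM with vehicle. Gpx4, the peroxidase that protects membrane lipids from ferroptosis, was at 123, 109 and 121 FPKM with S100A8/A9 and at 125, 109 and 117 FPKM with vehicle, so its groups covered nearly the same range. Sod1, the cytosolic copper and zinc superoxide dismutase, was at 21.7, 24.8 and 37.5 FPKM with S100A8/A9 and at 25.2, 25.5 and 37.3 FPKM with vehicle. Its log2 difference was -0.08 ± 0.0687 with the block and the blocked limma fit gave an adjusted p of 0.861, the unblocked one 1. Unpaired, the sign turned, to 0.08 without S100A8/A9 replicate 1 and to 0.10 without vehicle replicate 3, while leaving out whole numbers with the block gave -0.12 to -0.02. Cat was at 68.9, 55.8 and 75.8 FPKM with S100A8/A9 and at 68.2, 49.4 and 67.3 FPKM with vehicle.

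Glutathione transferases couple glutathione to electrophiles, and their genes come in families with close relatives that can share reads. Gstm1 was at 90.7, 79.8 and 126 FPKM with S100A8/A9, against 82.1, 74.3 and 91.2 FPKM with vehicle. It was higher within each number, mostly through replicate 3 with its ratio of 1.39, and had a log2 difference of 0.24 ± 0.0825 with the block and limma adjusted p-values of 0.502 with the block and 1 without it. Gstp1 had within-number ratios of 1.08, 1 and 1.24, and in replicate 4 it was at 21.4 FPKM with S100A8/A9 and 28.7 FPKM with vehicle. Its neighbor and close copy Gstp2 lay lower with S100A8/A9 in replicates 1 to 3, at 15.2, 15 and 9.18 FPKM, against 16.3, 17.9 and 15.6 FPKM with vehicle. Gstp1 and Gstp2 together gave 43.4, 38.8 and 35.6 FPKM with S100A8/A9 and 42.4, 41.7 and 36.9 FPKM with vehicle, so the pair had ratios of 1.02, 0.93 and 0.964 and no common direction. Gsto1, an omega class transferase, was at 72.3, 67.6 and 72.8 FPKM with S100A8/A9 and at 71.8, 71.3 and 67.7 FPKM with vehicle. Gsta3 was barely expressed, at 1.02, 0.555 and 1.14 FPKM with S100A8/A9 and at 0.709, 0.67 and 1.64 FPKM with vehicle.

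The NADPH that both systems consume comes largely from the pentose phosphate pathway and from malic enzyme. G6pdx and Pgd encode the 2 NADPH-producing dehydrogenases of that pathway, and both were higher with S100A8/A9 within each number. G6pdx was at 56.1, 59 and 69.4 FPKM with S100A8/A9 and at 54.7, 58.5 and 63.6 FPKM with vehicle. Pgd was at 209, 240 and 330 FPKM with S100A8/A9 and at 194, 232 and 290 FPKM with vehicle. These are ratios of 1.01 to 1.09 for G6pdx and 1.04 to 1.14 for Pgd, inside the spread between replicate numbers. Me1, cytosolic malic enzyme, was at 5.27, 4.92 and 5.77 FPKM with S100A8/A9 and at 4.82, 4.25 and 5.11 FPKM with vehicle, with a log2 difference of 0.14 ± 0.0821 (SE, with the block) and limma adjusted p-values of 0.781 with the block and 1 without it. On the log2 scale the difference was 0.03 for Taldo1 and 0.08 for Tkt, enzymes of the non-oxidative branch, and 0.06 for G6pdx and 0.11 for Pgd. In replicate 4, Me1 was at 1.62 FPKM with S100A8/A9 and 1.61 FPKM with vehicle.

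Nqo1, a quinone reductase often used as a readout of NRF2 activity, was at 8.16, 5.12 and 9.31 FPKM with S100A8/A9, against 6.77, 5.22 and 9.27 FPKM with vehicle. The within-number ratios were 1.2, 0.979 and 1, and the log2 difference was 0.07 (blocked limma, adjusted p = 0.9). Slc48a1, a heme transporter, was at 78.5, 70.4 and 92.7 FPKM with S100A8/A9 and at 75.8, 68.9 and 82 FPKM with vehicle, higher within each number. Blvrb, which reduces biliverdin and flavins, was at 72, 68.7 and 84.7 FPKM with S100A8/A9 and at 73.6, 64.8 and 74.7 FPKM with vehicle.

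At an unadjusted p under 0.05, the blocked limma fit had 9 of the 34 genes, against 7.97% of all tested genes, and the fit without the block had 1 (Keap1), against 3.02%. The 9 were Prdx1, Keap1, Slc7a11, Prdx5, Gstm1, Txn1, Gsr, Srxn1 and Txnrd1. Of these, 5 belong to the thioredoxin system. None of these 9 p-values survived adjustment over all tested genes.

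For 33 of the 34 genes, or 97.1%, the range of the mean of both groups over replicates 1 to 3 was larger than the treatment difference, as it was for 87.2% of all tested genes. Keap1 was the exception, with a range of 0.02 against a difference of 0.28 in log2(FPKM + 1). The median range over the 34 was 0.51, beside 0.26 over all tested genes. For 25 of the 34, replicate 3 was the highest library in both groups, or 73.5%, against 28.2% of all tested genes. The widest ranges were those of Gclc at 2.13-fold, Slc7a11 at 2.01-fold and Prdx6 at 2-fold, followed by Osgin1 at 1.82-fold and Sqstm1 at 1.78-fold. Nfe2l2 did not follow them, and was highest in replicate 1 and lowest in replicate 3 in both groups.

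Markers of other cell types differed over the replicate numbers as well. Summed over 12 macrophage markers, expression was 6481, 5004 and 4200 FPKM with S100A8/A9 and 6306, 4730 and 3923 FPKM with vehicle, lowest in replicate 3 of both groups. Most of this is Lyz2, and without it the other 11 gave 1336, 955 and 909 FPKM with S100A8/A9 and 1293, 941 and 794 FPKM with vehicle, in the same order, although Cd14 among them was highest in replicate 3. The 13 neutrophil markers summed to 125, 135 and 225 FPKM with S100A8/A9 and to 125, 126 and 233 FPKM with vehicle, highest in replicate 3, with 7 of them, Mpo and Elane included, under 1 FPKM in all 6 libraries. Most of the rise was S100a8, at 11.4, 52.5 and 113 FPKM with S100A8/A9 and 9.72, 44.1 and 125 FPKM with vehicle. S100a9 and Mmp9 were also highest in replicate 3 of both groups, while Mmp8 and Csf3r were highest in replicate 1 of both. Of the erythroid markers, 9 had values, and these summed to 4.63, 7.69 and 115 FPKM with S100A8/A9 and to 3.21, 9.56 and 129 FPKM with vehicle, with 5 of the 9 under 1 FPKM in all 6 libraries. For the 11 dendritic cell markers the sums were 5358, 3838 and 3725 FPKM with S100A8/A9 and 5322, 3804 and 3447 FPKM with vehicle, nearly all from Cd74, H2-Aa and H2-Ab1. The other 8 gave 150, 112 and 160 FPKM with S100A8/A9 and 149, 116 and 139 FPKM with vehicle, and had no common order. Zbtb46, Batf3, Irf4 and Irf8, which encode dendritic cell transcription factors, were highest in replicate 3 of both groups. Itgax, Ciita and Dpp4 were highest in replicate 1 of both groups, and Flt3 in replicate 1 with S100A8/A9 and replicate 3 with vehicle. The 6 monocyte markers summed to between 438 and 541 FPKM with S100A8/A9 and to between 461 and 517 FPKM with vehicle. The 10 T and NK cell markers summed to between 8.54 and 12.8 FPKM with S100A8/A9 and to between 9.67 and 14.8 FPKM with vehicle. No marker of these lists was at 0 in all 6 libraries, and the part of these cells in the antioxidant values was not tested.

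**Figure D3:**
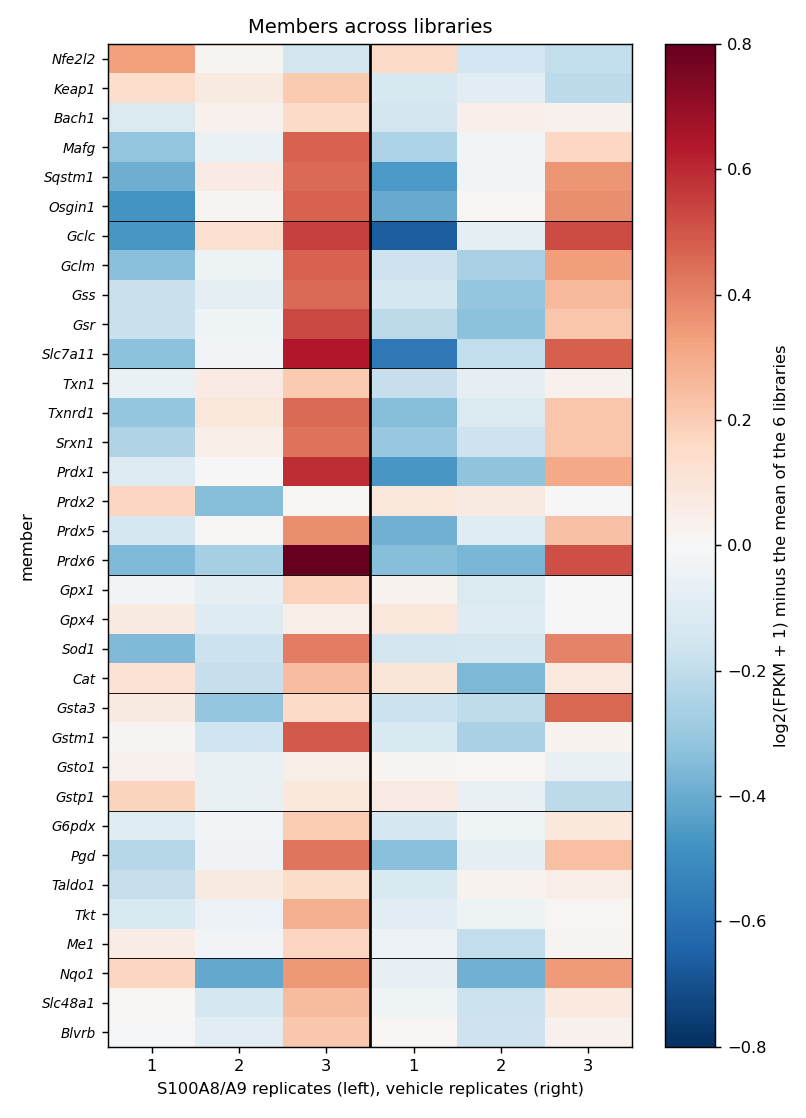
Each gene's log2(FPKM + 1) in a library minus its mean over the 6 libraries, with S100A8/A9 replicates at the left, vehicle replicates at the right and thin lines between roles. Replicate 3 is red in both groups for most rows, 25 of 34 genes being highest there in both, while Nfe2l2 runs the other way and Keap1 is red in all S100A8/A9 libraries and blue in all vehicle libraries.

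**Figure D4:**
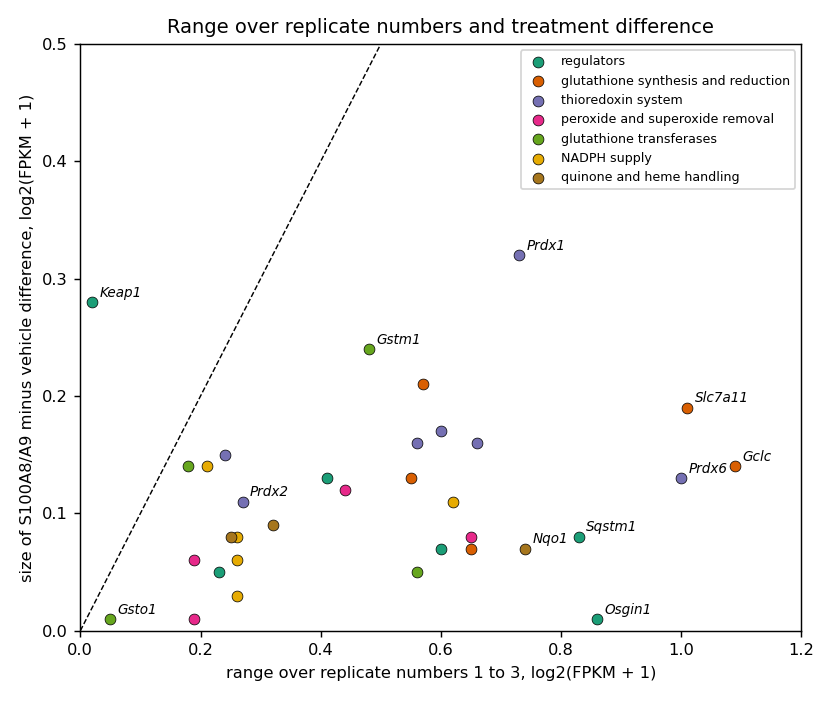
Size of the treatment difference against the range of the mean of both groups over replicate numbers 1 to 3, both in log2(FPKM + 1), 1 point per gene colored by role. All points but that of Keap1 lie below the dashed line of equal size.

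The abundance of the program can be read per length. In vehicle libraries the highest mean levels were those of Gpx1 at 293 FPKM, Prdx1 at 270 FPKM, Sqstm1 at 269 FPKM and Pgd at 239 FPKM. Of the 34 genes, 7 averaged at least 100 FPKM and 4 averaged under 10 FPKM, namely Gsta3 at 1.01, Me1 at 4.73, Nqo1 at 7.09 and Osgin1 at 8.28. The length model behind the FPKM is not given in the sources used here, so levels of different genes compare only roughly. In GENCODE, 11 of the 34 genes share exon bases with another gene, for instance Gss with Acss2 and G6pdx with Ikbkg, both on the opposite strand.

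Of a wider list of 80 other NRF2 and redox genes, 62 passed the filter. None passed the adjusted threshold in either limma fit, and the median log2 difference was 0.04. At an unadjusted p under 0.05 there were 11 of 62 in the blocked fit and 3 in the other, against 7.97% and 3.02% of all tested genes. Within replicate numbers, 32.3% were higher in each, against 19.4% of all tested genes, and 11.3%, or 7 genes, were lower in each, against 9.62%. In replicate 4 the median of the wider list was -0.03, with 26 genes higher and 35 lower among the 61 listed there, where the 34 members had a median of 0.04 with 22 higher and 12 lower. Replicate 3 was the highest in both groups for 30.6% of the 62, near the 28.2% of all tested genes. Groups did not overlap for 4 of the 62 genes that were higher with S100A8/A9 and for 1 that was lower. Of all tested genes, 4.71% and 1.94% showed these patterns. By smallest blocked p, the first 4 genes of the wider list were Esd, Msra, Sod2 and Aifm2. Sod2, mitochondrial superoxide dismutase and also a known NF-kB target, was at 16.8, 17.5 and 18 FPKM with S100A8/A9, against 13.4, 13.5 and 15.9 FPKM with vehicle, with no overlap. It was also higher in replicate 4, at 19.6 FPKM with S100A8/A9 and 14.9 FPKM with vehicle, and its adjusted p in limma with the block was 0.304. Aifm2, the ferroptosis suppressor FSP1, was at 9.91, 11 and 11.2 FPKM with S100A8/A9 and at 8.29, 9.46 and 8.27 FPKM with vehicle, likewise without overlap, but in replicate 4 it was at 15.3 FPKM with S100A8/A9 and 16.2 FPKM with vehicle. Msra, which repairs oxidized methionine, was at 5.23, 8.38 and 9.44 FPKM with S100A8/A9 and at 3.75, 7.23 and 6.09 FPKM with vehicle, but in replicate 4 it was lower, at 2.93 FPKM with S100A8/A9 and 3.34 FPKM with vehicle. Esd, S-formylglutathione hydrolase, was at 142, 196 and 240 FPKM with S100A8/A9 and at 126, 166 and 207 FPKM with vehicle, with a replicate 4 ratio of 1.01. Adjusted p-values of these 3 in limma with the block lay between 0.271 for Esd and 0.36 for Aifm2.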

How the data were processed

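Poly(A) RNA of 8 libraries was sequenced, 4 with S100A8/A9 and 4 with vehicle. Per the submitters' processing notes the tools were HISAT2, featureCounts, Subread and DESeq2 1.34.0 with the mm10 build, with no roles given. The authors deposited 1 value for each Ensembl gene, read here as FPKM from how the values scale with exon length, most directly in replicate 4, since neither headers nor labels name a unit. The table of replicates 1 to 3 holds 55450 genes with FPKM sums of 282921 to 303660, and that of replicate 4 holds 24848 genes. In replicate 4, 98.78% (S100A8/A9) and 98.58% (vehicle) of the values worth at most 20 reads fell on whole reads (tolerance 0.01) given GENCODE M21 exon lengths, which implies 33400000 and 31900000 reads. Only 5.49% to 6.16% did in the other libraries, whose depth is a rough estimate of 22800000 to 25700000 reads.

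limma-trend (limma 3.58.1, R 4.3.3) was run on log2(FPKM + 1), two-sided, after dropping genes that did not reach 1 FPKM in 3 or more of the 6 libraries of replicates 1 to 3, with Benjamini-Hochberg adjustment over all of them and a threshold of 0.05. Such fold changes understate changes of low genes. The fits were tested on simulated data that assumed pairing by number and held planted changes larger than those of the members. That test does not show whether differences of the members' size would be found. Same-numbered libraries deviated together from their group means (correlations of 0.595, 0.254 and 0.52 over genes, against -0.531 to -0.01 for different numbers), which was taken as pairing, and a second fit blocks on the number. All members are named. Full statistics went to called members, the 4 with the smallest p in each fit and the 2 with the highest and the 2 with the lowest difference, and of the wider redox list the 4 with the smallest blocked p are named. Gstp2 was named after its values were seen. Members and lists were chosen with earlier results of these data known. Alternatives were another pseudocount, other filters, 3 scalings, all 8 libraries and leaving out libraries. Marker sums without their leading genes were added after seeing the data. Gene symbols matched all 55450 IDs of the first table.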

Additional observations from a re-analysis of the deposited data

How the results depend on the processing

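No member passed the adjusted threshold under any alternative except 1, Prdx1, with a filter at 5 FPKM and the replicate block. Over all genes, limma without the block called 0 genes, and with the block 59, or 62 with a pseudocount of 0.1 and 79 with the filter at 5 FPKM. With the block and median-of-ratios, upper-quartile or quantile scaling it called 3 genes each, and without the filter or with all 8 libraries 0. Leaving out 1 library without the block gave 0 to 1 called genes, and leaving out replicate number 1, 2 or 3 with the block gave 40, 98 and 7. Leaving out 1 library without the block gave a members' median between -0.02 and 0.21, the negative value being without S100A8/A9 replicate 3. Leaving out whole numbers with the block gave 0.07 to 0.13. With all 6 or 8 libraries that median lay between 0.05 and 0.11. The count of members higher in each number was 9 with quantile scaling and 15 to 18 otherwise, apart from 18 to 26 when 1 number was left out and only the other 2 had to match, or 14 when replicate 4 had to match as well. The shares of all tested genes were 12.9% with quantile scaling and 15.9% to 22.8% otherwise. They were 27.8% to 35% when 1 number was left out, and 11.7% when replicate 4 had to match. The count lower in each number was 2 with median-of-ratios scaling, 1 with upper-quartile scaling and 2 with quantile scaling, and lay between 0 and 3 when 1 number was left out. Of all tested genes, 13.4%, 13.1% and 16.4% were lower in each number with these 3 scalings. When 1 number was left out, 16.8% to 27.9% were. When libraries were left out, signs turned for Prdx2 (0.04 and 0.05, in a range of -0.22 to 0.05), Slc7a11 (-0.08 and -0.04, in a range of -0.08 to 0.48) and Sod1 (0.08 and 0.10, in a range of -0.30 to 0.10). For Slc7a11 and Sod1 they turned only when 1 library was left out without the block. With the block and whole numbers left out, Slc7a11 stayed at 0.17 to 0.21 and Sod1 at -0.12 to -0.02. The other 6 genes with full statistics kept their signs but moved in size, over 0.11 to 0.55 for Prdx1, 0.05 to 0.38 for Gstm1, 0.02 to 0.32 for Prdx5, 0.08 to 0.21 for Txn1, 0.08 to 0.19 for Me1 and 0.21 to 0.34 for Keap1. The causes of these shifts were not tested. With 3 libraries a group, differences of the size seen here, mostly under 0.2 in log2, are hard to separate from the spread between libraries.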

Other observations

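Heme handling was followed in Hmox1, the heme oxygenase gene shared by NRF2 and BACH1, which was picked after its values were seen. It was at 282, 449 and 867 FPKM with S100A8/A9 in replicates 1 to 3, against 278, 410 and 746 FPKM with vehicle. Within numbers the ratios were 1.02, 1.09 and 1.16, and in replicate 4 the ratio was 1.26, at 223 FPKM with S100A8/A9 and 177 FPKM with vehicle. Its adjusted p in limma with the block was 0.705. Over the replicate numbers it ranged 2.87-fold, wider than any of the 34 members, and it was highest in replicate 3 of both groups. The hemoglobin gene Hbb-bs was also highest there, at 34.8 FPKM with S100A8/A9 and 41.5 FPKM with vehicle, against at most 2.96 FPKM in the other 4 libraries. The part of hemoglobin-bearing cells in the Hmox1 levels was not tested.

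The list of other redox genes also held genes that were lower with S100A8/A9 in each number and in replicate 4, picked here after their values were seen. Among the 62 genes that passed the filter there were 3 of these. Of all tested genes with a replicate 4 value, 4.54% had this pattern, a nearly equal share. Aldh1a1, which did not pass the filter, had the same pattern at 0.22 FPKM or less. Pgls, which encodes a pentose phosphate pathway lactonase, had ratios of 0.965, 0.886 and 0.867, and 0.809 in replicate 4. Sesn1, a sestrin gene induced by p53, had ratios of 0.934, 0.86 and 0.755, and 0.748 in replicate 4. Prdx3, the mitochondrial peroxiredoxin gene, had ratios of 0.909, 0.859 and 0.979, and 0.864 in replicate 4, on the other side of vehicle from Prdx1 and Prdx5. Adjusted p-values in limma with the block were 0.708 for Pgls, 0.722 for Sesn1 and 0.774 for Prdx3, so none passed the threshold.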
